A study of Mus musculus with 11 samples.

Results

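Transcripts of 10 integrin subunits were followed in basal and luminal cells of the terminal end buds (TEBs) and ducts of the pubertal mouse mammary gland. The members were named by symbol and matched to the Entrez gene identifiers of the count table, as the alpha chains Itga1, Itga2, Itga3, Itga5, Itga6, Itga9 and Itgav and the beta chains Itgb1, Itgb4 and Itgb6. All 10 were found among 27179 gene identifiers, and all 10 were among the 17370 genes that passed the filter on low counts. TEBs and ducts were microdissected from female E-cadherin-GFP knock-in mice on the C57BL/6 strain at 5 weeks of age, and TEBs are the club-shaped tips by which the ducts elongate in puberty. Both populations were sorted by the study as Lin–CD29+CD24+ cells, where Lin– means negative for Ter119, CD31 and CD45, and were split by the reporter into Ecad-GFP hi luminal cells and Ecad-GFP lo basal cells. RNA-seq was done on 3 libraries of basal duct, 3 of basal TEB, 2 of luminal duct (replicates 1 and 3) and 3 of luminal TEB. A further luminal duct sample was discarded by the study for its low number of cells. Each replicate pooled at least 2 mice, so the spread between libraries is a spread between pools, and no genotype or treatment differed between the groups.

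Integrins are the receptors by which cells hold on to the extracellular matrix. Each is a pair of 1 alpha and 1 beta chain, and the pair sets the ligand. In the mammary gland the basal (myoepithelial) cells lie on the basement membrane, which is rich in laminin and type IV collagen, while most luminal cells face the lumen. The beta 1 chain pairs with the most alpha chains, whereas beta 4 pairs only with alpha 6, in the hemidesmosome that ties the keratin cytoskeleton to laminin, and beta 6 pairs only with alpha v. CD29, the antigen of the sort, is the protein of Itgb1 itself, so both populations had been selected as positive for it.

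Totals ran between 27989137 and 49221436 counts a library, and the members took 0.0692% to 0.347% of the counts. Mitochondrial genes held 4.34% to 37.5% of counts, with the highest shares in basal TEB replicate 1 (37.5%) and luminal duct replicate 3 (28.5%). Summed over 8 basal markers, TMM-scaled counts-per-million (CPM) lay between 16527 and 20419 in basal duct, 5671 and 8752 in basal TEB, 99.0 and 271 in luminal duct and 15.5 and 28.6 in luminal TEB. Over 10 luminal markers the sums lay between 651 and 724 in basal duct, 486 and 487 in basal TEB and 13092 and 20097 in luminal ones, so each population carried the markers of its label. The 2 luminal duct libraries stood apart from each other, with a summed level of 8 fibroblast markers of 10.1 CPM in replicate 1 and 219 CPM in replicate 3, of 8 immune markers of 1.43 and 60.1 CPM, and of 5 adipocyte markers of 0 and 75.1 CPM. Basal duct replicate 2 stood apart as well, with 249 CPM of 8 endothelial markers against 12.6 and 25.4 in the other basal duct libraries, and 187 CPM of adipocyte markers against 4.07 and 11.5, and no call of a member changed without it. The fibroblast markers were higher in basal libraries, at 503 to 827 CPM in basal duct and 426 to 558 in basal TEB, against 10.9 to 46.6 in luminal TEB. Summed over 6 pericyte markers, levels were 24.9 to 53.3 CPM in basal duct, 1.15 to 20.7 in basal TEB, 0.728 to 14.6 in luminal duct and 1.16 to 3.37 in luminal TEB. The part of these markers in the differences between basal and luminal cells was not tested. In bulk RNA, fewer cells of a type and less RNA per cell cannot be told apart.

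Most of the 10 members were expressed at higher levels in basal than in luminal cells (the plot of CPM by library). In ducts 8 of the 10 members were higher in basal than luminal cells and in TEBs 7 were, while Itgb4, the hemidesmosome chain, was lower in basal cells of TEBs and Itga5 and Itgb6 were not called in either structure. Between TEBs and ducts 1 member passed the test: Itgb4 was 2.36-fold lower in basal cells of TEBs than of ducts. Among all 17370 genes, 22.3% were called between basal and luminal cells in ducts (12.6% higher in basal cells), 25.1% in TEBs (13.2% higher and 11.8% lower), and 1.32% between TEBs and ducts in basal cells (1.16% lower in TEBs). Calls were made at an adjusted p (FDR) below 0.05 in edgeR's quasi-likelihood test, adjusted by the Benjamini-Hochberg method over all genes tested.

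**Figure D1:**
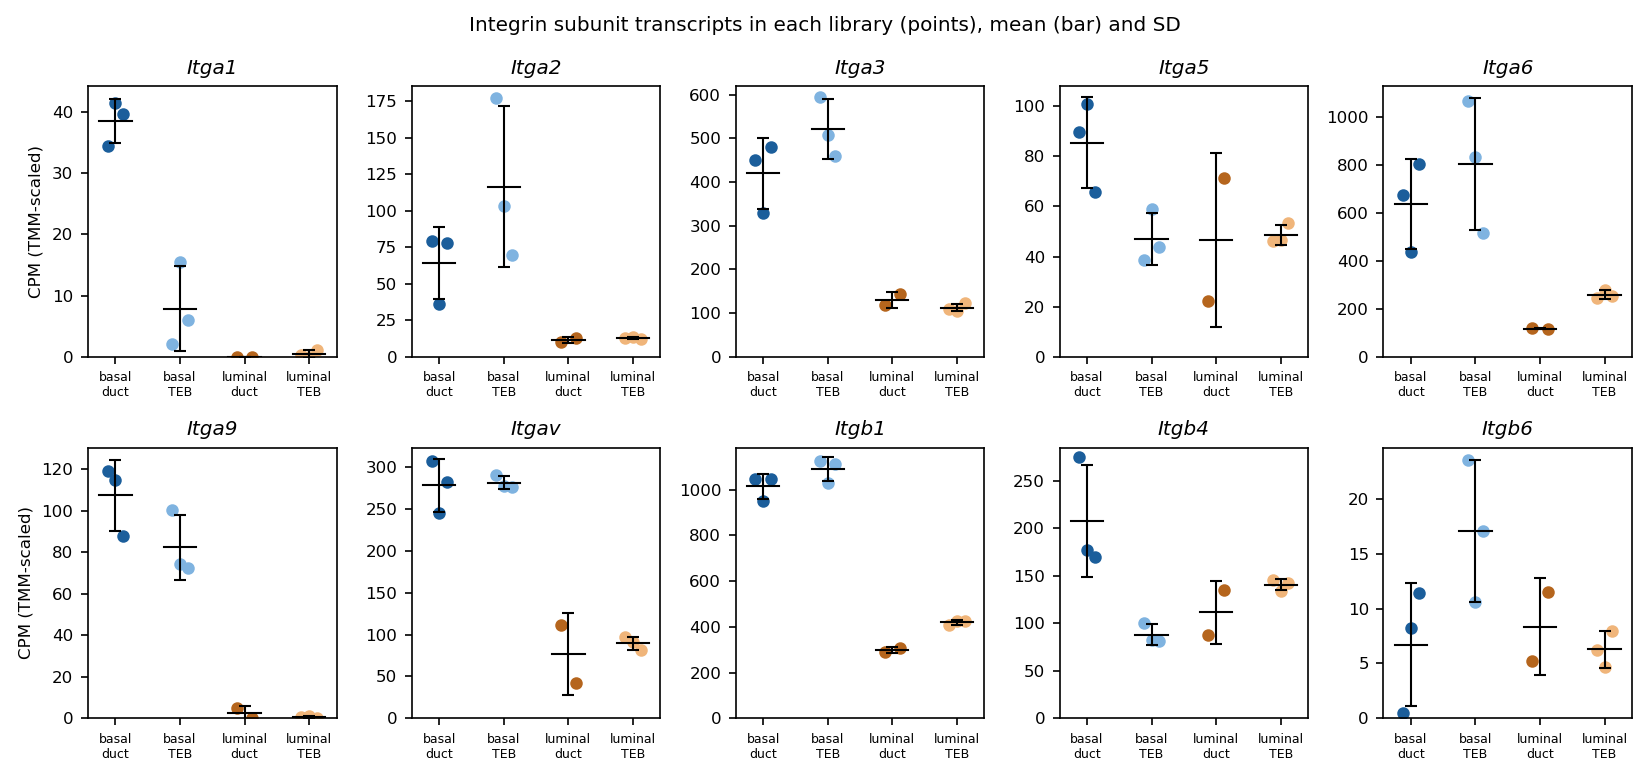
TMM-scaled CPM (linear axis from 0, own scale for each gene) of the 10 integrin subunits in the 11 libraries, with points for libraries and bars for the group mean and SD. Itgb1 sits between 952 and 1126 CPM in basal libraries and between 288 and 427 CPM in luminal ones, while Itgb4 is lowest in basal TEB, at 81.2 to 100.4 CPM.

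Per kilobase of annotated transcript, Itgb1 was the most abundant member in every group, with mean levels of 242 CPM per kb in basal duct, 259.8 in basal TEB, 71.1 in luminal duct and 100.3 in luminal TEB. The laminin receptor chains followed, with Itga6 at 152, 191, 28.0 and 61.6 CPM per kb and Itga3 at 86.5, 107, 27.0 and 23.2 CPM per kb in the same order of groups. In luminal duct the ranges of Itga6 and Itga3 overlapped. In basal TEB the ranges of Itgb1 and Itga6 overlapped, as did those of Itga6 and Itga3, although each of the 3 libraries kept the order. Below them the order was less settled: Itgav (39.4 CPM per kb) and Itgb4 (33.6) overlapped in basal duct, and so did Itga5 (19.6) with Itga2 (15.3) and Itga2 with Itga9 (15.1). In basal TEB overlaps ran from Itgav to Itga2, from Itgb4 over Itga9 to Itga5, and between Itgb6 (3.35 CPM per kb) and Itga1 (1.31). In luminal TEB, Itgb4 at 22.8 CPM per kb was level with Itga3, and Itga9 (0.0935) and Itga1 (0.0803) closed the list. In luminal duct the ranges of Itgb4 (18.0 CPM per kb), Itgav (10.8) and Itga5 (10.7) overlapped in turn.

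The common beta chain Itgb1 (Entrez 16412; GRCm38 chromosome 8, 128685654 to 128733579) was at 1045, 952 and 1045 CPM in basal duct, 1126, 1031 and 1113 CPM in basal TEB, 288 and 308 CPM in luminal duct and 408, 427 and 427 CPM in luminal TEB. No luminal library reached a basal one, although the gate had required the protein on both. The group means were 1014 ± 53.4 (SD, n = 3) in basal duct and 298 ± 14.6 (n = 2) in luminal duct, a 3.40-fold difference (log2 1.77, SE 0.19, edgeR FDR 3.46e-05). In TEBs the difference was 2.59-fold (log2 1.37, SE 0.16, edgeR FDR 4.84e-05). In luminal cells the TEB libraries all lay above the duct libraries (log2 0.50, 95% interval 0.11 to 0.88), and the difference did not pass the test (edgeR FDR 0.183).

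The laminin-binding alpha chains came next. Itga6 (Entrez 16403; chromosome 2, 71786886 to 71858427), the partner of both beta 1 and beta 4 and the antigen CD49f of mammary stem cell sorts, was at 673, 435 and 805 CPM in basal duct, 1064, 832 and 514 CPM in basal TEB, 120.1 and 115 CPM in luminal duct and 243, 279 and 254 CPM in luminal TEB. The basal groups overlapped each other, and within luminal cells every TEB library was above both duct libraries, as was so for 26.2% of all genes. Basal exceeded luminal cells 5.42-fold in ducts (log2 2.44, SE 0.34, edgeR FDR 0.00026) and 3.10-fold in TEBs (log2 1.63, SE 0.28, edgeR FDR 0.000968). The luminal TEB libraries lay 2.20-fold above luminal duct (log2 1.14, 95% interval 0.45 to 1.83), with an unadjusted p of 0.0038 by edgeR's quasi-likelihood test and an FDR of 0.1. That difference did not pass, although DESeq2's Wald test (FDR 0.0142), edgeR's likelihood ratio test (FDR 0.0221) and a fit of the luminal libraries alone (FDR 0.0282) called it. In luminal cells 0 of the 10 members passed the main test between TEB and duct, where 1.41% of all genes were called, and 4 (Itga1, Itga6, Itga9, Itgb1) had an unadjusted p under 0.05, as did 16.6% of all genes.

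Itga3 (Entrez 16400; chromosome 11, 95044475 to 95076844), whose pairing with beta 1 binds laminin-332 and laminin-511, was at 450.5, 328 and 481 CPM in basal duct and 595, 507 and 460.5 CPM in basal TEB. In luminal cells it was at 118 and 144 CPM in ducts and 110.3, 105 and 122 CPM in TEBs. Basal and luminal libraries were far apart and TEB and duct libraries overlapped. The differences were 3.21-fold in ducts (log2 1.68, SE 0.22, edgeR FDR 0.000183) and 4.63-fold in TEBs (log2 2.21, SE 0.19, edgeR FDR 6.05e-06).

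The beta 4 chain Itgb4 (Entrez 192897; chromosome 11, 115974725 to 116008412) had another pattern than its partner Itga6. Its level was 275, 177 and 169.8 CPM in basal duct and 100.4, 82.2 and 81.2 CPM in basal TEB, so that the highest TEB library was below the lowest duct library. In luminal cells it was at 87.9 and 135 CPM in ducts and 146, 134 and 142 CPM in TEBs, which overlapped. Itgb4 was lower in basal cells of TEBs than of ducts (means 87.9 ± 10.9 and 207 ± 58.4, n = 3 each, log2 difference −1.24, SE 0.22, 95% interval −1.72 to −0.75, edgeR FDR 0.0213). In luminal cells the TEB minus duct difference was 0.34 on the log2 scale (95% interval −0.20 to 0.88, edgeR FDR 0.509). The difference between these 2 differences was −1.58 (SE 0.34, 95% interval −2.31 to −0.84), with an unadjusted p of 0.000541 and an edgeR FDR of 0.0723, so it was not called. In that interaction 0 of the 10 members passed, against 0.443% of all genes. In ducts Itgb4 was 1.86-fold higher in basal than luminal cells (log2 0.90, SE 0.25, edgeR FDR 0.0233), and in TEBs it was 1.60-fold lower in basal cells (log2 −0.68, SE 0.22, edgeR FDR 0.0416), with all 3 basal below all 3 luminal libraries, a separation in that direction seen in 27.2% of all genes.

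These Itgb4 calls changed with the libraries used. The basal TEB and duct difference had an edgeR FDR of 0.0666 (log2 −1.02) without basal duct replicate 1 and of 0.126 (log2 −1.18) without basal TEB replicate 3. The Itgb4 difference in ducts was lost without basal duct replicate 1 (log2 0.64, FDR 0.0737), without luminal duct replicate 1 (log2 0.62, FDR 0.156) and in a fit of the duct libraries alone (log2 0.92, FDR 0.0983). In TEBs the Itgb4 call was lost without basal TEB replicates 2 (FDR 0.0860) or 3 (FDR 0.123), without luminal TEB replicates 1 (FDR 0.110), 2 (FDR 0.0703) or 3 (FDR 0.101), and with the replicate number as a block (FDR 0.0546), at log2 values of −0.62 to −0.74. Without the 2 libraries of highest mitochondrial share, basal TEB replicate 1 and luminal duct replicate 3, the basal TEB and duct difference of Itgb4 was −1.34 (FDR 0.0210). The summed basal markers did not overlap between basal duct and basal TEB either (16527 to 20419 against 5671 to 8752 CPM, with none of the 8 genes at 0 counts). The summed luminal markers were apart too, at 651 to 724 CPM in basal duct and 486 to 487 CPM in basal TEB, with up to 2 of 10 at 0 counts in a TEB library, 1 of 10 called lower (Krt18, −1.98, edgeR FDR 0.00197) and 0 higher. The part of either list in the Itgb4 difference was not tested. Exons of Itgb4 overlap by 537 bases those of the antisense lincRNA B230344G16Rik in the GENCODE annotation, which the table lists at 0 to 2.50 CPM.

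**Figure D2:**
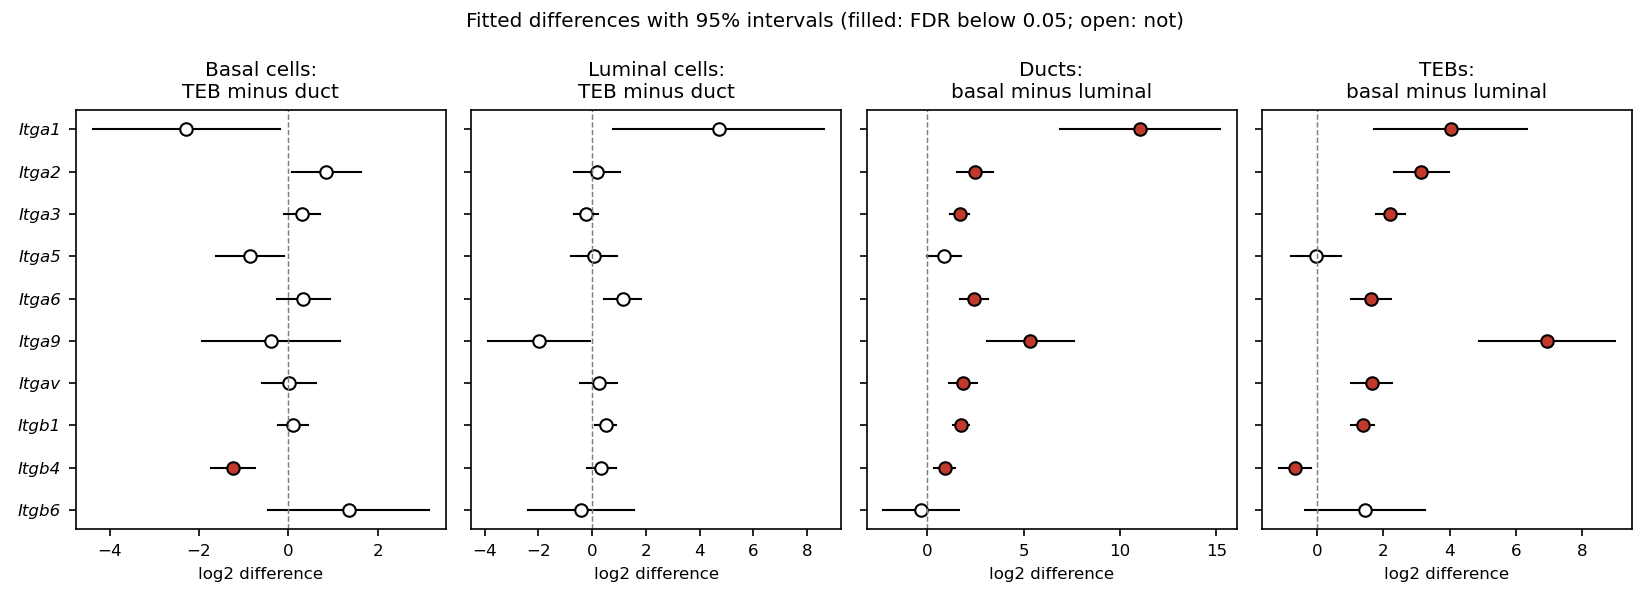
Fitted log2 differences with 95% intervals for the 10 integrin subunits in each comparison, with filled points for an edgeR FDR below 0.05 and open points for the rest. Most members lie to the right of 0 between basal and luminal cells, and between TEB and duct the only filled point is Itgb4 in basal cells, at −1.24.

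Set against Itgb1 within each library, a measure that needs no scaling between libraries, Itgb4 per kilobase was 0.179, 0.127 and 0.110 of Itgb1 in basal duct and 0.0607, 0.0542 and 0.0496 in basal TEB. In luminal cells the ratio was 0.208 and 0.297 in ducts and 0.243, 0.213 and 0.226 in TEBs. Basal TEB was thus the lowest group, below every other library, and all basal libraries were below all luminal ones. The log2 ratio averaged −2.88 ± 0.36 (SD, n = 3) in basal duct, −4.19 ± 0.15 (n = 3) in basal TEB, −2.01 ± 0.36 (n = 2) in luminal duct and −2.14 ± 0.10 (n = 3) in luminal TEB. Averaged over both structures, the ratio was lower in basal than luminal cells by 1.46 log2 units (two-sided exact permutation test within structure, p = 0.01, smallest possible p 0.005). Basal minus luminal was −0.87 in ducts (exact permutation p = 0.2) and −2.06 in TEBs (exact permutation p = 0.1), with a smallest possible p of 0.1 in each. In ducts Itgb4 itself was 1.86-fold higher in basal cells, and Itgb1 was 3.40-fold higher. Averaged over both cell types, TEBs differed from ducts by −0.72 (exact permutation test within cell type, p = 0.035), and this p was 0.0875 without luminal duct replicate 3 and 0.05 without any 1 of the luminal TEB replicates. Within cell types the TEB minus duct difference was −1.31 in basal cells (exact permutation p = 0.1) and −0.13 in luminal cells (exact permutation p = 0.7), where 0.1 is the smallest p that either design allows.

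**Figure D3:**
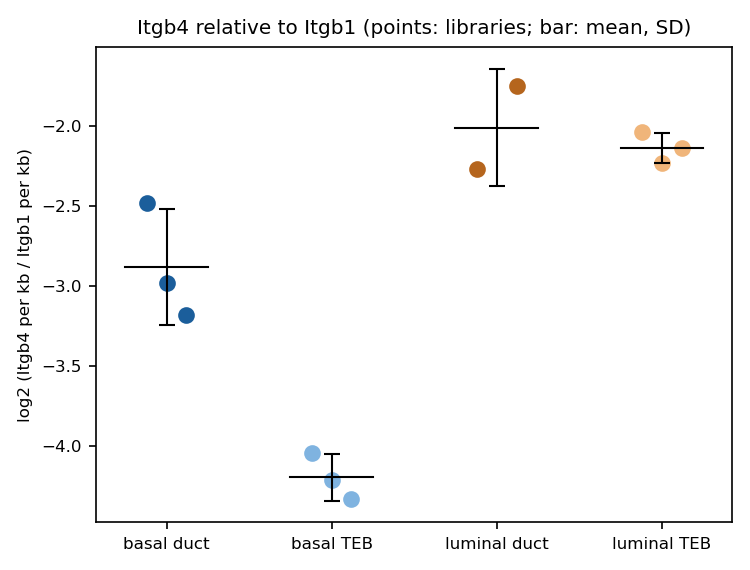
Log2 ratio of Itgb4 to Itgb1 per kilobase in each of the 11 libraries, with bars for the group mean and SD. The 3 basal TEB libraries lie lowest, around −4.19, and the luminal libraries highest, around −2.01 and −2.14.

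Other genes of the hemidesmosome, with the keratins Krt5 and Krt14, were read beside Itgb4 from a list of 7 genes (Plec, Dst, Col17a1, Cd151, Krt5, Krt14 and Erbin). In basal cells 4 of 7 fell from ducts to TEBs and 0 rose, where 1.16% of all genes were called lower. The list median was −0.67 on the log2 scale against −0.03 over all genes. The list was chosen with earlier results of these data known, so its counts and median are descriptions and no test of the hemidesmosome genes as a set. The genes with the largest changes were the basal keratins Krt14 (−2.87, edgeR FDR 0.00766) and Krt5 (−2.30, edgeR FDR 0.0249) and the keratin linker Dst (−1.40, SE 0.21, edgeR FDR 0.00698). Krt14 and Krt5 are also among the 8 basal markers, of which 4 fell in basal cells (list median −1.85). Dst had a mean of 819 ± 34.9 CPM in basal duct and 311 ± 86.9 CPM in basal TEB (n = 3 each), and 491 ± 17.0 (n = 2) and 535 ± 1.43 CPM (n = 3) in luminal duct and TEB. Like Itgb4, Dst was higher in basal than luminal cells in ducts (0.74) and lower in TEBs (−0.78, edgeR FDR 0.0146). Named after their values were seen, the tetraspanin Cd151 fell as well (−0.67, SE 0.14, edgeR FDR 0.0406), while the 3 other genes were not called: the plectin gene Plec at 0.19 (FDR 0.700), the collagen XVII gene Col17a1 at −0.24 (FDR 0.884) and Erbin at −0.37 (FDR 0.289). In luminal cells 2 of 7 fell from ducts to TEBs, Krt14 (−3.27, edgeR FDR 0.0107) and Krt5 (−2.18, edgeR FDR 0.0454), with no luminal library above 20.3 CPM for either, and both are among the 8 basal markers, of which 7 fell there. Between basal and luminal cells 5 of 7 were higher in basal cells in ducts, led by Krt14 (7.19), Krt5 (6.90) and Col17a1 (6.82), and 3 of 7 were higher in TEBs, led by Col17a1 (9.10).

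The collagen-binding chains Itga1 and Itga2 lie side by side on the minus strand of chromosome 13, Itga2 (Entrez 16398) at 114833081 to 114932100 and Itga1 (Entrez 109700) at 114958079 to 115101964, with 25978 bases between them. Both pair only with beta 1. Itga1 was at 34.4, 41.4 and 39.6 CPM in basal duct and 2.14, 15.5 and 5.99 CPM in basal TEB, without overlap. In luminal cells it was low, at 0 and 0.0411 CPM in ducts and 0.247, 0.0191 and 1.18 CPM in TEBs, where 3 counts are worth 0.0572 to 0.123 CPM. With 4838 counts in basal duct and 1 in luminal duct, the pooled ratio in ducts was 2598 (95% interval of counting error 466 to 102628). The fitted log2 value in ducts, which depends on the prior count at such low counts, was 11.02 (95% interval 6.87 to 15.18, edgeR FDR 0.00124). That value was 9.76 without luminal duct replicate 1 and 13.66 without luminal duct replicate 3. In TEBs the pooled ratio was 20.0 (986 against 73 counts, 95% interval of counting error 15.8 to 25.8). Luminal TEB replicate 3 held 61 of the 73 counts. The fitted log2 value in TEBs was 4.03 (95% interval 1.73 to 6.33, edgeR FDR 0.0144). The call was lost without basal TEB replicate 2 (FDR 0.0569) or luminal TEB replicate 1 (FDR 0.0640). A fit of the TEB libraries alone did not call Itga1 either (log2 4.04, FDR 0.0605). Without luminal TEB replicate 3 the Itga1 difference in TEBs was 5.90 on the log2 scale against 4.03 with all libraries, and without basal TEB replicate 2 it was 3.05.

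Between basal TEB and duct the Itga1 difference was −2.28 (SE 0.96, 95% interval −4.38 to −0.19) and did not pass (edgeR FDR 0.305), while limma voom called it (FDR 0.0437). The Itga1 difference was −3.27 without basal TEB replicate 2 (FDR 0.173) and −1.83 without basal TEB replicate 1 (FDR 0.483). In basal cells 2 other members had no overlap between TEB and duct, Itgb4 and Itga5, both lower in TEBs, against 20.8% of all genes without overlap in either direction and 11.9% lower in TEBs. The summed level of 6 pericyte markers moved with Itga1 among basal libraries, at 24.9, 53.3 and 26.3 CPM in duct and 1.15, 20.7 and 14.4 CPM in TEB, and its part in the difference was not tested. Up to 2 of those 6 markers were at 0 counts in a basal duct library and up to 5 in a basal TEB library. The summed basal markers were lower in TEB as well, at 18970.4, 20419 and 16527 CPM in duct and 5671, 8752 and 6152 CPM in TEB. Their part in the Itga1 difference was not tested either. Exons of Itga1 overlap those of Gm49395 on the same strand by 685 bases, so counts there could belong to either.

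Itga2, the alpha chain of the receptor that binds fibrillar collagen in platelets and epithelia, was at 79.4, 36.1 and 77.9 CPM in basal duct and 177, 103 and 69.5 CPM in basal TEB. In luminal cells it was at 9.92 and 13.1 CPM in ducts and 12.8, 13.9 and 12.5 CPM in TEBs. The basal groups overlapped and no luminal library came near them. Basal exceeded luminal cells 5.60-fold in ducts (log2 2.49, SE 0.43, edgeR FDR 0.00133) and 8.91-fold in TEBs (log2 3.15, SE 0.38, edgeR FDR 6.74e-05). In basal cells the TEB minus duct values of the 2 neighbours had opposite signs, 0.85 for Itga2 (95% interval 0.09 to 1.62, edgeR FDR 0.298) and −2.28 for Itga1, and neither passed.

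To show what lies before the start sites of members that were high in basal cells, the 250 bases upstream of Itgb1 and of the neighbours Itga2 and Itga1 are given with those of Itga5, which the main test did not call between basal and luminal cells. They are RefSeq promoter sequences of build GRCm38.p6, which held 10 windows for 8 of the 10 members, and lie outside the gene itself, on the strand of the gene, at chr8:128685404-128685653 (+), chr13:114932101-114932350 (−), chr13:115101965-115102214 (−) and chr15:103366792-103367041 (−). Capitals mark a GC box (GGGCGG on either strand).
Itgb1: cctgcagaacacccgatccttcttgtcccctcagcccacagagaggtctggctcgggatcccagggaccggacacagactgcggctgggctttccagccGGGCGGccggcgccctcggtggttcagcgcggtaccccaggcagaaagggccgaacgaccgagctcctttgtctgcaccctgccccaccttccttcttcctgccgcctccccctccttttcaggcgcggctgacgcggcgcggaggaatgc
Itga2: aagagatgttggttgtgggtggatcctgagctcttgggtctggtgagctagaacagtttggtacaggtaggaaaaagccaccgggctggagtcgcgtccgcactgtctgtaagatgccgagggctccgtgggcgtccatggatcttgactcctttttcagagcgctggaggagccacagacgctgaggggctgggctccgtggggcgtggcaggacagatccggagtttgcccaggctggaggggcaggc
Itga1: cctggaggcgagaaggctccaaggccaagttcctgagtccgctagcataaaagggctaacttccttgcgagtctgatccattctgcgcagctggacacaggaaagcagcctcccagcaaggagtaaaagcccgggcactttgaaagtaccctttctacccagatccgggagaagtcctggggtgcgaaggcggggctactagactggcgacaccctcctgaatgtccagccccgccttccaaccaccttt
Itga5: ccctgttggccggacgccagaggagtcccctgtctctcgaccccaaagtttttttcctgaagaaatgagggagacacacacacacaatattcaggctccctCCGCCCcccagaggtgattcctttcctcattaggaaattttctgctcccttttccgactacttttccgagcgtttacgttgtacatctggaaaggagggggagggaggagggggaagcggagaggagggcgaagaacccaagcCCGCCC
The window of Itgb1 held 1 GC box, 68.0% G or C and 21 CpG, and that of Itga5 held 2 GC boxes, 55.6% G or C and 11 CpG. Neither Itga2 (60.8% G or C, 12 CpG) nor Itga1 (57.6%, 10 CpG) had this motif, which 32.7% of 32851 promoter windows hold. None of the 4 windows held a CCAAT box (letters CCAAT, in 33.8% of all windows), a TATA box (letters TATAAA, 12.4%), an AP-1 site (letters TGANTCA, 6.75%) or a CArG box (1.47%) on either strand.

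Some members form receptors that read the RGD motif of fibronectin and other ligands. Itgav (Entrez 16410; chromosome 2, 83722303 to 83806917), the partner of beta 1, 3, 5, 6 and 8 chains, was at 307, 245 and 283 CPM in basal duct, 291, 278 and 276 CPM in basal TEB, 111 and 41.7 CPM in luminal duct and 96.9, 90.8 and 81.7 CPM in luminal TEB. The basal groups were level (log2 difference 0.02, 95% interval −0.58 to 0.62) and the 2 luminal duct libraries lay on either side of luminal TEB. Basal exceeded luminal cells 3.65-fold in ducts (log2 1.87, SE 0.33, edgeR FDR 0.00143) and 3.14-fold in TEBs (log2 1.65, SE 0.28, edgeR FDR 0.000947). The value in ducts was 2.74 without luminal duct replicate 1 and 1.33 without luminal duct replicate 3, and both passed the test. Within luminal cells, TEB minus duct was 0.24 (edgeR FDR 0.740), 1.11 without luminal duct replicate 1 (FDR 0.0119) and −0.30 without luminal duct replicate 3. Exons of Itgav overlap by 634 bases the antisense transcript Gm13684.

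Itga5 (Entrez 16402; chromosome 15, 103344286 to 103366791), the alpha chain of the fibronectin receptor, was at 89.7, 101 and 65.6 CPM in basal duct, 38.8, 58.8 and 44.0 CPM in basal TEB, 22.2 and 71.2 CPM in luminal duct and 46.1, 46.8 and 53.3 CPM in luminal TEB. It was highest in basal duct, where every library lay above every basal TEB library, and 1 luminal duct library reached into that range. TEB minus duct in basal cells was −0.86 (SE 0.35, 95% interval −1.62 to −0.09) and did not pass (edgeR FDR 0.294). Basal minus luminal was 0.88 in ducts (SE 0.40, edgeR FDR 0.139) and −0.04 in TEBs (95% interval −0.80 to 0.71, edgeR FDR 0.948). The value in ducts was 1.95 without luminal duct replicate 3 (FDR 0.00209) and 0.27 without luminal duct replicate 1 (FDR 0.548).

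Itgb6 (Entrez 16420; chromosome 2, 60598292 to 60722603), whose pairing with alpha v activates latent TGF-beta, was the rarest of the 3 beta chains. It was at 0.499, 8.24 and 11.4 CPM in basal duct, 23.5, 10.6 and 17.1 CPM in basal TEB, 5.21 and 11.5 CPM in luminal duct and 6.23, 4.65 and 7.96 CPM in luminal TEB. Basal TEB overlapped basal duct, whose replicate 1 was far below its other libraries. Basal minus luminal in TEBs was 1.44 (SE 0.83, edgeR FDR 0.235), and no comparison of Itgb6 passed the main test.

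Itga9 (Entrez 104099; chromosome 9, 118606709 to 118901003), which pairs with beta 1 to bind tenascin-C, osteopontin and VCAM-1, was the member most restricted to basal cells beside Itga1. It was at 119, 115 and 88.0 CPM in basal duct and 100.2, 74.3 and 72.5 CPM in basal TEB, against 5.01 and 0.0411 CPM in luminal duct and 0.538, 1.12 and 0.327 CPM in luminal TEB. Luminal duct replicate 1 alone rose above 2 CPM among luminal libraries. In ducts the fitted difference was 5.35 (SE 1.03, edgeR FDR 0.00268), 4.42 without luminal duct replicate 3 and 11.25 without luminal duct replicate 1, which left a library with 1 count. In TEBs 7855 against 100 counts gave a pooled ratio of 116 (95% interval of counting error 95.6 to 143). The fitted log2 difference of Itga9 in TEBs was 6.94 (edgeR FDR 0.000171), and it was 7.55 without luminal TEB replicate 2. Within luminal cells, TEB minus duct was −1.98 (edgeR FDR 0.285), −2.91 without luminal duct replicate 3 (FDR 0.0171) and 3.92 without luminal duct replicate 1 (FDR 0.0652).

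The 10 chains can also be read as a makeup. As a share of all alpha chain signal per kilobase in a library, Itga6 had the largest group mean in each group, at 41.3% ± 5.37 (SD, n = 3) in basal duct, 45.0% ± 5.54 (n = 3) in basal TEB, 31.6% ± 3.68 (n = 2) in luminal duct and 53.1% ± 1.96 (n = 3) in luminal TEB. In luminal duct replicate 3 Itga3 (31.5%) exceeded Itga6 (29.0%). Itga3 took 23.9%, 26.2%, 30.2% and 20.0% and Itgav 11%, 9.93%, 12.5% and 11% in the same order. Among beta chains Itgb1 held 67.0% ± 1.79 in basal duct, 72.8% ± 1.96 in basal TEB, 52.4% ± 1.77 in luminal duct and 55.2% ± 0.666 in luminal TEB. Itgb4 held 7.29% to 11.8% of beta chain signal in basal duct libraries, 3.72% to 4.38% in basal TEB, 10.6% to 15.9% in luminal duct and 11.8% to 13.5% in luminal TEB. Itgb5, no member, came second to Itgb1 in each group, with 15.4%, 14.9%, 26.5% and 22.7%. These shares are descriptions and were not tested.

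**Figure D4:**
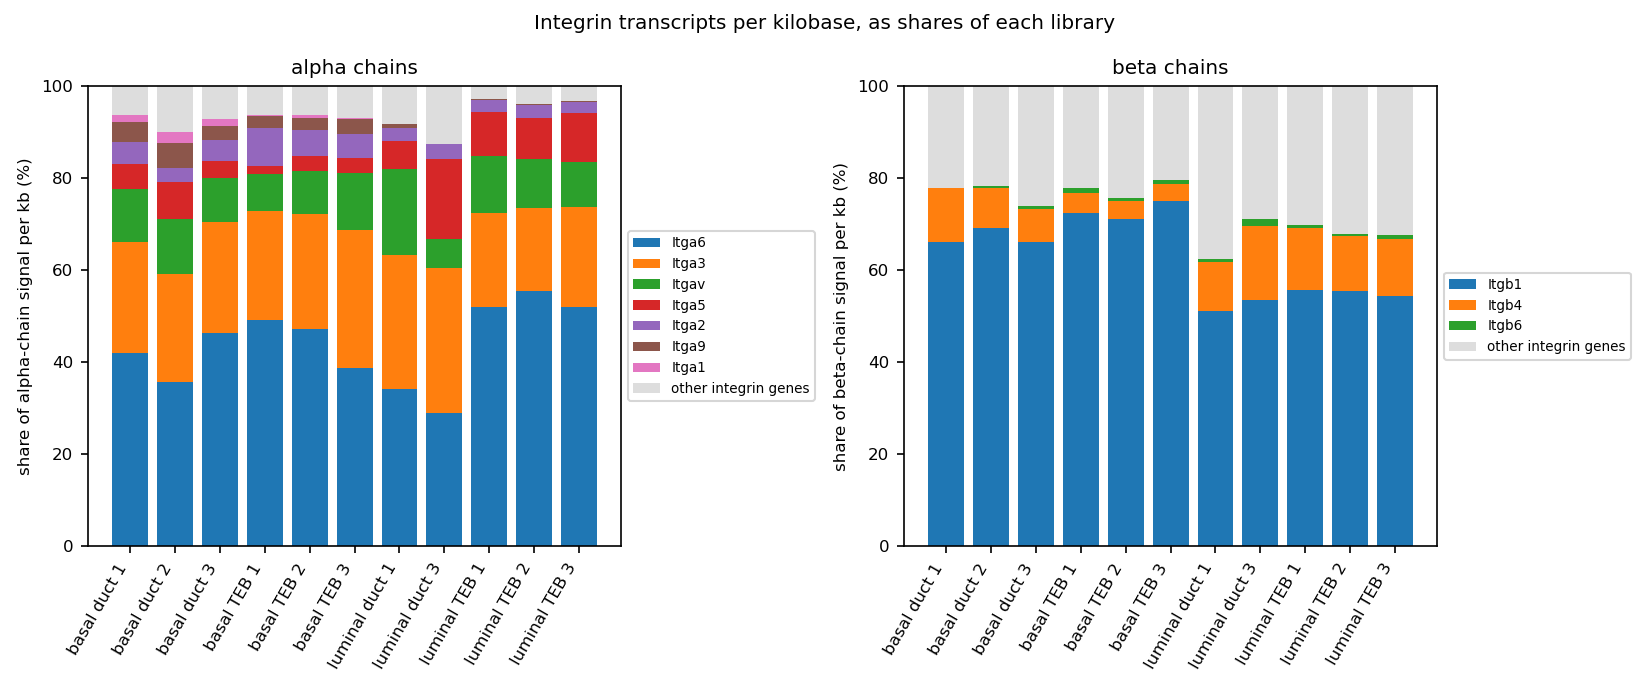
Share (%) of alpha chain signal and of beta chain signal per kilobase taken by each member in each library, as stacked bars to 100%. The other integrin genes are joined in grey. Itgb1 takes the greatest part of the beta chain signal in every group and Itgb4 is thinnest in basal TEB, at 3.72% to 4.38%.

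Across the 11 libraries most members moved together on the log2 CPM scale, and the libraries share the split into basal and luminal cells. Pearson's r was 0.98 between Itga2 and Itga3 and 0.98 between Itga9 and Itgav. It was 0.95 between Itga6 and Itgb1, 0.07 between Itga6 and its other partner Itgb4, and lowest between Itgb4 and Itgb6 at −0.69. Among 7699 genes that are no integrins and average 4 or more in log2 CPM, the pattern most like that of Itgb1 was that of Eogt (r 0.996) and Asph (0.992). Itga3 was closest to Vcan (0.995) and Agrn (0.991), Itga6 to Ptk7 (0.985) and Cpd (0.985), Itgav to Perp (0.997) and Zscan21 (0.989), and Itga9 to Pdk4 (0.989) and Trp63 (0.986). Itga1 was closest to Tln1 (0.963) and Zbtb1 (0.954) and Itga2 to Neo1 (0.983) and Sord (0.979). The remaining members had looser matches, Itgb4 with Cyld (0.935) and Card10 (0.921), Itga5 with Zer1 (0.921) and Filip1l (0.904), and Itgb6 with Alg6 (0.910) and Gadd45gip1 (0.879). All are correlations over the same 11 libraries and are given as descriptions.

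Of 17 other integrin genes 16 were tested, and 2 were higher in basal than luminal cells in ducts, Itga8 (log2 3.64, edgeR FDR 0.000117) and Itgb3 (log2 2.44, edgeR FDR 0.00264). In TEBs Itga8, a nephronectin receptor chain, was the 1 called (log2 4.88, edgeR FDR 3.92e-06). Among all genes 12.6% were called higher in basal cells in ducts and 13.2% in TEBs, and neither count exceeded that share. Between TEBs and ducts 0 of 16 were called by edgeR in either cell type, and 0 in the interaction. The list medians were −0.78 and −1.20 for TEB minus duct in basal and luminal cells, and those of the 10 members were 0.06 and 0.21, against −0.03 and 0.04 over all genes. For basal minus luminal the members had medians of 1.82 in ducts and 1.64 in TEBs, against 0.08 and 0.04 over all genes. The 16 other integrin genes had medians of −0.64 and 0.55, so the higher level in basal cells held for the members and not for integrin genes at large.

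Among 30 adaptors that couple integrins to actin and signalling, 17 were higher and 3 lower in basal than luminal cells in ducts, and 10 were higher and 3 lower in TEBs. Of all genes 22.3% were called in ducts (12.6% higher) and 25.1% in TEBs (13.2% higher and 11.8% lower). Tns4 (log2 5.16 in ducts and 8.06 in TEBs), Flna (4.26 and 2.77) and Tns3 (3.28 and 3.33) led the higher ones. The kinase Ptk2b led the lower ones (−6.15 and −6.67), with Ptk2, the focal adhesion kinase, in both (−0.96 and −1.34), Sharpin in ducts (−1.07) and Tns2 in TEBs (−1.29). In basal cells 3 of 30 fell from ducts to TEBs: Nedd9 (−2.63, SE 0.33, edgeR FDR 0.00317), Tns2 (−1.64, edgeR FDR 0.0466) and Actn1 (−1.01, edgeR FDR 0.0398). There 1.16% of all genes were called lower. In luminal cells Tns4 fell (−3.29, edgeR FDR 0.0104), from 5.21 ± 2.41 CPM in ducts (n = 2) to 0.524 ± 0.371 in TEBs (n = 3), against 184 ± 49.0 CPM in basal duct. Of the 8 basal markers 7 fell in luminal cells as well (list median −3.08), and their part in the Tns4 value was not tested. Vcl was lower in the interaction (−1.40, edgeR FDR 0.0330).

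Genes for ligands of the members were read in the same fit. Of 20 laminin and collagen genes, 13 were higher in basal cells in ducts and 11 in TEBs, led by Lama1 (log2 9.59 and 9.92), Col4a1 (7.09 and 8.22) and Col4a2 (6.94 and 8.36), and 1, Lama5, was lower in ducts (−1.15). The shares of all genes called higher were 12.6% in ducts and 13.2% in TEBs. In basal cells Col4a6 (−1.08, edgeR FDR 0.0261) and Lamb3 (−0.91, edgeR FDR 0.0279) fell from ducts to TEBs, where 1.16% of all genes were called lower. Lamb3, the beta 3 chain of the laminin-332 that alpha 6 beta 4 binds, rose in luminal cells (1.01, edgeR FDR 0.0349), while Lama3, of the same trimer, fell there (−2.10, edgeR FDR 0.0220). Lama3 was at 825 ± 155 CPM in basal duct (n = 3), 15.1 ± 8.53 in luminal duct (n = 2) and 3.50 ± 1.34 in luminal TEB (n = 3), and the basal markers moved with it in luminal cells (99.0 to 271 CPM in ducts, 15.5 to 28.6 CPM in TEBs), whose part was not tested. The interaction called Lamb3 (−1.92, edgeR FDR 0.0126) and Col4a6 (−1.68, edgeR FDR 0.0383). Lamb3 was at 664 ± 96.9 CPM in basal duct, 353 ± 56.0 in basal TEB, 24.9 ± 2.59 in luminal duct and 50.1 ± 0.54 in luminal TEB (n = 3, 3, 2 and 3).

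Of 16 genes for RGD and matricellular ligands, 8 were higher and 1 lower in basal cells in ducts and 9 higher and 2 lower in TEBs. Over all genes 12.6% were higher in ducts, and 13.2% were higher and 11.8% lower in TEBs. Fbn1 (log2 5.75 and 7.14) and Ccn2 (5.62 and 4.51) were among the highest in both, with Fn1 (4.32) in TEBs and Vcam1 in ducts, which was at 32.7 ± 7.11 CPM in basal duct (n = 3) and 0 in both luminal duct libraries. Npnt, the ligand of the receptor with the Itga8 chain, was lower in basal cells in both (−2.73 and −3.04), as was Tgfb1 in TEBs (−2). Between TEBs and ducts 0 of 16 were called in basal cells by edgeR, and in luminal cells Ltbp1 (−1.86, edgeR FDR 0.0227) and Tgfb3 (−1.39, edgeR FDR 0.0401) fell. The interaction called Ltbp1 (2.55, edgeR FDR 0.0330).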

How the data were processed

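RNA was sequenced by the authors as 80 bp read pairs in 11 libraries of sorted mammary cells. Reads were aligned to mm10 with Rsubread and assigned to Entrez genes by its inbuilt RefSeq annotation. The deposited values are raw counts per gene, without normalization, and whether strand was used is not given in the sources used here. Members and lists were chosen with earlier results of these data known. Here genes were filtered with filterByExpr (minimum count 10, total 15), libraries were scaled by TMM, and 1 model over the 4 groups was fitted by edgeR 4.0.16 (R 4.3.3) with the quasi-likelihood test, where the study names estimateDisp and glmFit. P-values were adjusted by Benjamini-Hochberg. The SE is the absolute log2 difference over the square root of F. The common biological coefficient of variation was 0.704. Pooled ratios of counts have exact 95% intervals for counting error only. Log2 CPM used a prior count of 2. All members were named, with up to 3 called genes a direction of largest log2 difference from each list and the 2 genes most correlated with each member. Gene positions and promoters are from RefSeq on GRCm38, and gene strands and exon overlaps from GENCODE. DESeq2 1.42.0 and limma 3.58.1 gave alternatives. Scripts were tested on simulated data. Of 27179 identifiers, 25275 had a symbol.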

Additional observations from a re-analysis of the deposited data

How the results depend on the processing

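The count of members called between TEB and duct in basal cells (1, Itgb4) was 0 without composition normalization, which shifted the median of all genes to −0.16, and 2 by limma voom (Itga1, Itgb4). In luminal cells (0 called) it was 3 by DESeq2 (Itga1, Itga6, Itgb1), 1 by the likelihood ratio test, 1 with the groups compared only (Itga6 in both) and 1 without the 2 libraries of highest mitochondrial share (Itga9). In the interaction (0 called) it was 1 with no filter and 1 by limma voom (Itgb4 in both), 2 by DESeq2 and 2 by the likelihood ratio test (Itga1, Itgb4 in both), and 2 without the libraries of highest mitochondrial share (Itga5, Itgb4). With 1 library left out, the counts were 0 to 1 in basal cells, 0 to 1 in luminal cells and 0 to 1 in the interaction, 7 to 9 in ducts and 6 to 8 in TEBs. The change in the basal count came without basal duct replicate 1 or basal TEB replicate 3 (0 each), and those in luminal cells and the interaction without luminal duct replicate 1 (Itgav) or 3 (Itga9 and Itgb4). In ducts and TEBs the counts stayed within 1.5 times of 8 under all alternatives, and Itga2, Itga3, Itga6, Itga9, Itgav and Itgb1 were called in both under all 23. The Itgb4 to Itgb1 ratio with 1 library left out was −1.59 to −1.34 between basal and luminal cells and −0.85 to −0.59 between TEBs and ducts. The causes were not tested.

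Replicate numbers were not taken as pairs. Deviations from group means correlated at −0.068 to 0.163 (median 0.069) between libraries of the same number (15 pairs). Between others (30 pairs) they correlated at −0.163 to 0.137 (median −0.027). Above 0.1 were 4 of the 15 and 2 of the 30. The 2 luminal duct libraries deviate from their mean by equal and opposite amounts, so their values mirror each other. With the replicate number as a block the counts of members were 1 and 0 between TEB and duct in basal and luminal cells, 8 in ducts, 7 in TEBs and 0 in the interaction. The Itgb4 to Itgb1 ratio between TEBs and ducts was −0.66 under the block (exact permutation p = 0.05).

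Signs turned only in values that the main test did not call. Itgav between TEB and duct in basal cells was −0.02 with DESeq2 size factors, with a filter at a mean CPM of 1, by DESeq2 and without mitochondrial genes, and −0.14 without composition normalization, where Itgb1 was −0.06. In luminal cells Itga5 was −0.01 with size factors and −0.02 by DESeq2, and Itga3 was 0.18 and Itgb6 0.03 without composition normalization, which shifted the median of all genes to 0.42. Without the libraries of highest mitochondrial share, Itgav was −0.28 and Itgb6 0.28 in luminal cells, Itgb6 0.36 in ducts and Itga5 0.07 in TEBs. With 1 library left out, Itgav ran from −0.06 to 0.06 in basal cells, and in luminal cells Itga2 ran from 0.00 to 0.40, Itga5 from −0.55 to 1.13, Itga9 from −2.91 to 3.92, Itgav from −0.30 to 1.11 and Itgb6 from −0.87 to 0.27. Itgb6 in ducts ran from −0.93 to 0.36 and Itga5 in TEBs from −0.26 to 0.07. The luminal duct group has 2 libraries, and its comparisons could not detect small differences. Removal of mitochondrial genes and of the libraries richest in them, like the other alternatives, was planned.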
